A study of Mus musculus with 8 samples.

Results

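The 6 genes described here encode the metal-binding proteins metallothionein 1 and 2 (*Mt1* and *Mt2*), the zinc-sensing transcription factor MTF1 (*Mtf1*), and the zinc transporters ZnT1 (*Slc30a1*), ZIP10 (*Slc39a10*) and ZIP14 (*Slc39a14*). They are 6 of the 32390 rows of a count table from bulk RNA sequencing of mouse gastrocnemius, the large calf muscle, and each symbol names a row of its own. The genes were chosen by name with their counts in the comparison of genotypes known. Their levels and fold changes between genotypes, and whether the rule applied to all rows called them, are therefore a description and no evidence for a difference. Muscle was taken from 4 *Nox4* fl/fl control mice and 4 MckCre:*Nox4* fl/fl mice (KO, NOX4-deficient), all of them males, 21 months old, fed standard chow and on a C57BL/6 background. Both groups carry the floxed *Nox4* alleles, and only the KO mice carry Cre. The *Mck* promoter drives Cre mainly in skeletal muscle and less in heart, so that other cells of the muscle keep *Nox4*, which encodes an NADPH oxidase that makes hydrogen peroxide. Mice with Cre but without floxed alleles were not analysed here, and the titles of the 8 libraries name no batch, so a batch cannot be checked.

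Metallothioneins are small cysteine-rich proteins that bind zinc and copper and react readily with oxidants. Zinc released from them, or entering from outside, binds MTF1, which then activates the metallothionein genes and *Slc30a1* through short DNA sequences named metal response elements. Proteins of the SLC30A (ZnT) family move zinc out of the cytosol, and those of the SLC39A (ZIP) family move it in. ZIP14 also carries iron and manganese, and both ZIP14 and the metallothioneins are known to respond to inflammatory cytokines, while metallothionein genes respond to glucocorticoids as well.

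The promoters of the 3 genes known as direct MTF1 targets are given here because they hold the letters of the metal response element core, searched as TGCACNC or TGCGCNC on both strands. Each is 300 bases long, from 250 bases before to 50 after the RefSeq start site, on the mouse build GRCm38.p6, and all 3 genes lie on the + strand. The windows are chr8:94178839-94179138 for *Mt1*, chr8:94172368-94172667 for *Mt2* and chr1:191906531-191906830 for *Slc30a1*. Capitals mark matches to the core, which read as the reverse complement where the match is on the opposite strand.
Mt1: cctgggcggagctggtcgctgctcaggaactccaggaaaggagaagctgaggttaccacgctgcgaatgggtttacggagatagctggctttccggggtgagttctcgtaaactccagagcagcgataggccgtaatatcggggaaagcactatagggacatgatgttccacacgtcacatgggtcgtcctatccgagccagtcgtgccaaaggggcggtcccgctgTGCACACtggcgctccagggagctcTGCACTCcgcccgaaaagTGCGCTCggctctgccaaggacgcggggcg
Mt2: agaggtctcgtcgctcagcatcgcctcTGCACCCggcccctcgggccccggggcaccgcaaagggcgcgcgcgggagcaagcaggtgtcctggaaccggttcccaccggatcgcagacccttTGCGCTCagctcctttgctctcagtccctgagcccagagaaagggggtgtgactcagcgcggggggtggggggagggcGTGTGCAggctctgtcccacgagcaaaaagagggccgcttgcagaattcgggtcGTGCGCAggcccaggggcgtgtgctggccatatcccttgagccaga
Slc30a1: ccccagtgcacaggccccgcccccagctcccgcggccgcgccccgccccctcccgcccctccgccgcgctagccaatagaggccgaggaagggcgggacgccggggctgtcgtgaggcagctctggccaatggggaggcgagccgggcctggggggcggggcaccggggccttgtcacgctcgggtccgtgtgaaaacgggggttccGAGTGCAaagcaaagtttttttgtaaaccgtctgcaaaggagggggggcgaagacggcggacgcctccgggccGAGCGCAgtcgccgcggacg

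The *Mt1* window held 3 matches, all on the strand of the gene, and as many or more were present in 1.97% of the 32851 RefSeq promoters of this length. Counted with the start site as base 1 and no base 0, the matches began at bases -23, 3 and 21. The *Mt2* window held 4 matches, a number reached by 0.517% of promoters, with 2 on the strand of the gene and 2 on the other. They began at -223, -128, -50 and 5. The *Slc30a1* window held 2 matches on the opposite strand, beginning at -43 and 31, and 7.11% of promoters held as many. At least 1 match was present in 25.7% of all promoters. The antioxidant response element core, TGACNNNGC on either strand, is bound by NFE2L2 and was present in 12.4% of promoters. It matched once in *Mt2*, as TGACTCAGC at base -79, and once in *Slc30a1*, at base -82 on the opposite strand. No match to either core was found in the windows of *Mtf1* and *Slc39a10*, or to the antioxidant core in that of *Mt1*. A match describes the letters of the window and is not a measured binding site.

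**Figure D1:**
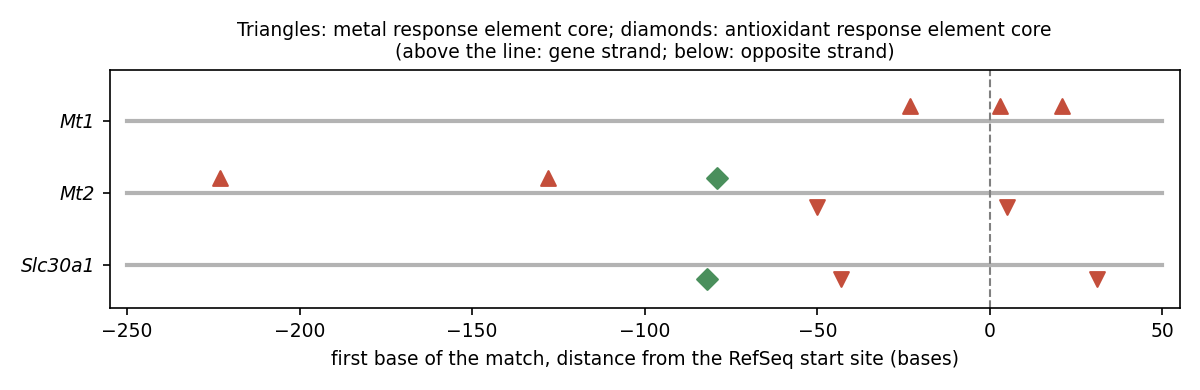
Matches to the metal response element core (triangles) and the antioxidant response element core (diamonds) in the promoters of *Mt1*, *Mt2* and *Slc30a1*, by distance in bases of the first base of the match from the RefSeq start site (dashed line). Symbols above a line are on the strand of the gene and symbols below it on the other; the 3 metal response element matches of *Mt1* lie within bases -23 to 21.

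*Nox4* itself had 85, 48, 35 and 70 counts in control mice 1 to 4 and 29, 43, 42 and 37 in KO mice 1 to 4, so the groups overlapped. Its log2 fold change was -0.65 (SE 0.29, adjusted p = 0.207, edgeR with Benjamini-Hochberg adjustment) and it was not called. The sources used here do not name the deleted exons, so a count over the whole gene is a limited check of the labels. The libraries held 16350548 to 19804661 counts, with both ends of that range in the control group. Counts were scaled to library size by edgeR's TMM method and are given as CPM, and 12725 rows with enough counts were fitted. A row was called when its adjusted p was under 0.05 and its log2 fold change was beyond 0.5 in either direction, and p-values measure the spread between these mice only. The rule called 6.16% of rows tested, 3.48% lower and 2.68% higher in KO muscle, and in 16.2% the 4 KO and 4 control libraries did not overlap. The median log2 fold change over all rows was 0.01.

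Of the 6 genes, *Mt1*, *Mt2* and *Slc39a14* were lower in every KO mouse than in any control mouse, *Slc39a10* had a lower mean with overlapping groups, and *Mtf1* and *Slc30a1* overlapped with means slightly higher in KO mice. Enough counts for the fit were present for 5 of the 6, and *Mt2* was not tested. The rule called 2 of these 5 lower, *Mt1* and *Slc39a14*, and 0 higher. These counts, beside 3.48% and 2.68% of all rows, follow from a choice made on this contrast.

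*Mt1* had 229, 245, 284 and 476 counts in control mice 1 to 4 and 83, 64, 100 and 89 counts in KO mice 1 to 4. Scaled, these were 13.7, 12.6, 15.2 and 24.8 CPM in control and 4.99, 3.24, 5.26 and 5.22 CPM in KO muscle. Every KO library lay below the lowest control library, and control mouse 4 stood above the other controls, at 1.63 times the next. The control mean was 16.6 ± 5.56 CPM and the KO mean 4.68 ± 0.967 CPM (SD, n = 4 each). *Mt1* RNA was thus 3.55-fold lower in KO muscle, a log2 fold change of -1.83 (SE 0.23). This was the 34th lowest log2 fold change of the 12725 rows tested. Without control mouse 4 the difference was 2.97-fold (log2 fold change -1.57, SE 0.18), and over 16 alternative fits the log2 fold change ranged from -1.94 to -1.57. Mean *Mt1* levels lay near the middle of the muscle's genes, at percentile 46.6 of the rows tested. The other 3 controls were close together, at 13.8 ± 1.30 CPM (SD, n = 3).

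*Mt2*, the neighbor of *Mt1* on chromosome 8, had 8, 5, 4 and 8 counts in control mice 1 to 4 and 2, 0, 2 and 1 in KO mice 1 to 4. The counts did not overlap, but they are so few that sampling noise alone spans a wide range, and the library with 0 counts allows up to 3. Summed over mice, 25 control counts compared with 5 KO counts, a ratio scaled to library size of 0.204 with a 95% interval of 0.0611 to 0.543. This interval is an exact one that covers counting error only and not differences between mice. When rows with few counts were kept in the fit, the log2 fold change was -2.19 (SE 0.85) and *Mt2* was not called. Per kilobase of exon, with the exons of all annotated transcripts merged, the control level was 0.581 ± 0.215 CPM for *Mt2* and 13.3 ± 4.46 CPM for *Mt1* (SD, n = 4). The low *Mt2* count has a measured limit. In GENCODE M21 on GRCm38, *Mt2* spans chr8:94172664-94173568 with 588 exonic bases, and 432 of them (73.5%) lie under the exon of Gm45774, an antisense gene on the - strand at chr8:94170748-94173412. The libraries did not record strand, so reads from these bases cannot be assigned to either gene by strand. So large an opposite-strand share occurred in 0.424% of 21951 protein-coding genes. The exons of *Mt1*, at chr8:94179082-94180327, had no such overlap. Gm45774 itself had 1, 3, 2 and 12 counts in control mice and 0, 0, 2 and 4 in KO mice, which overlapped. How the authors' counting treated shared bases is not given in the sources used here, and its part in the *Mt2* counts was not tested.

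**Figure D2:**
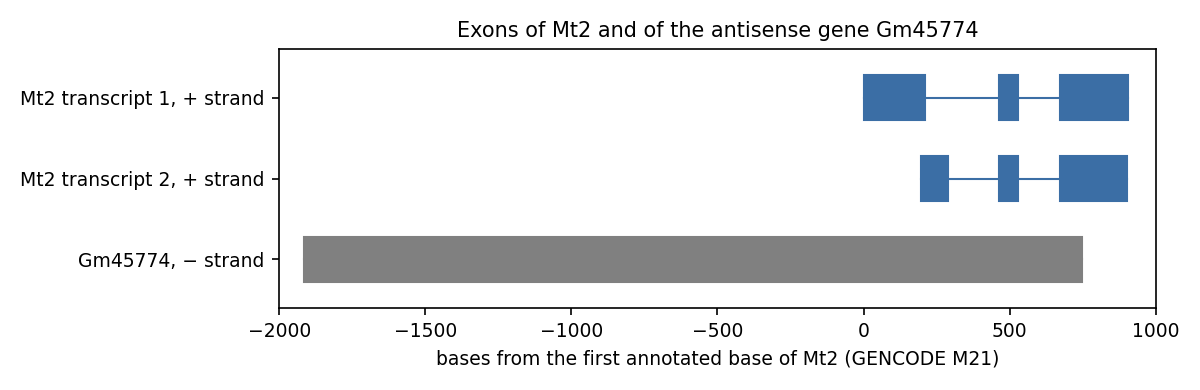
Exons of the 2 annotated *Mt2* transcripts (blue, + strand) and of Gm45774 (gray, - strand) in GENCODE M21, by distance in bases from the first annotated base of *Mt2*. The Gm45774 exon runs from -1916 to 748, covering the first and middle exons of *Mt2* and part of the last.

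*Mtf1*, which encodes the zinc sensor, had 275, 501, 349 and 375 counts in control mice and 329, 507, 330 and 416 counts in KO mice. The means were 20.1 ± 3.99 and 21.8 ± 3.89 CPM (SD, n = 4 each), and the ranges of 16.5 to 25.8 and 17.3 to 25.6 CPM overlapped almost fully. Its log2 fold change was 0.12 (SE 0.16), and it was not called. The *Mtf1* RNA level thus did not separate the genotypes that *Mt1* separated.

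*Slc30a1* encodes the plasma membrane exporter ZnT1 and shares metal response elements with the metallothioneins. It had 126, 178, 187 and 215 counts in control mice and 187, 284, 247 and 170 counts in KO mice. Scaled, these were 7.55, 9.16, 10.01 and 11.2 CPM in control and 11.3, 14.4, 13.0 and 9.97 CPM in KO muscle. KO mouse 4 lay within the control range and the other 3 above it. The means were 9.47 ± 1.53 and 12.1 ± 1.93 CPM (SD, n = 4 each), a log2 fold change of 0.36 (SE 0.16), not called. Its point estimate and that of *Mt1* had opposite signs in each of the 16 alternative fits. These fits reuse the libraries the genes were chosen on, so the signs are no further evidence, and the part of MTF1 was not tested.

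*Slc39a14* encodes ZIP14, an importer of zinc, iron and manganese. It had 252, 309, 292 and 799 counts in control mice and 132, 222, 145 and 169 counts in KO mice. The CPM values were 15.1, 15.9, 15.6 and 41.5 in control and 7.94, 11.2, 7.62 and 9.91 in KO muscle. The groups did not overlap, and control mouse 4 was 2.61 times the next control, while the other 3 controls differed little. The means were 22.0 ± 13.0 and 9.17 ± 1.70 CPM (SD, n = 4 each), 2.40-fold lower in KO muscle (log2 fold change -1.26, SE 0.34). Without control mouse 4 the control mean was 15.5 ± 0.405 CPM (n = 3) and the difference 1.69-fold (log2 fold change -0.76, SE 0.16), still called. The call was lost when control mouse 2 or 3 or any KO mouse was left out, and with DESeq2's size factors, library size only or no filter in edgeR, whereas DESeq2 and pydeseq2 kept it. Its log2 fold change with a mouse left out ranged from -1.41 to -0.76.

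*Slc39a10* encodes ZIP10, an importer of the plasma membrane. It had 115, 273, 248 and 218 counts in control mice and 81, 123, 81 and 154 counts in KO mice, or 6.89, 14.0, 13.3 and 11.3 CPM against 4.87, 6.22, 4.26 and 9.03 CPM. Control mouse 1 and KO mouse 4 crossed, while the other 3 mice of each genotype were apart. The means were 11.4 ± 3.21 and 6.10 ± 2.12 CPM (SD, n = 4 each), a 1.87-fold lower mean in KO muscle (log2 fold change -0.91, SE 0.26), not called. With each mouse left out, the log2 fold change ranged from -1.14 to -0.76. It was called without control mouse 1 or KO mouse 4, the mice whose removal parts the groups, and in none of the 6 other such fits. With all 8 mice, DESeq2, pydeseq2 and edgeR with the mouse number as an added term called it at -0.91.

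**Figure D3:**
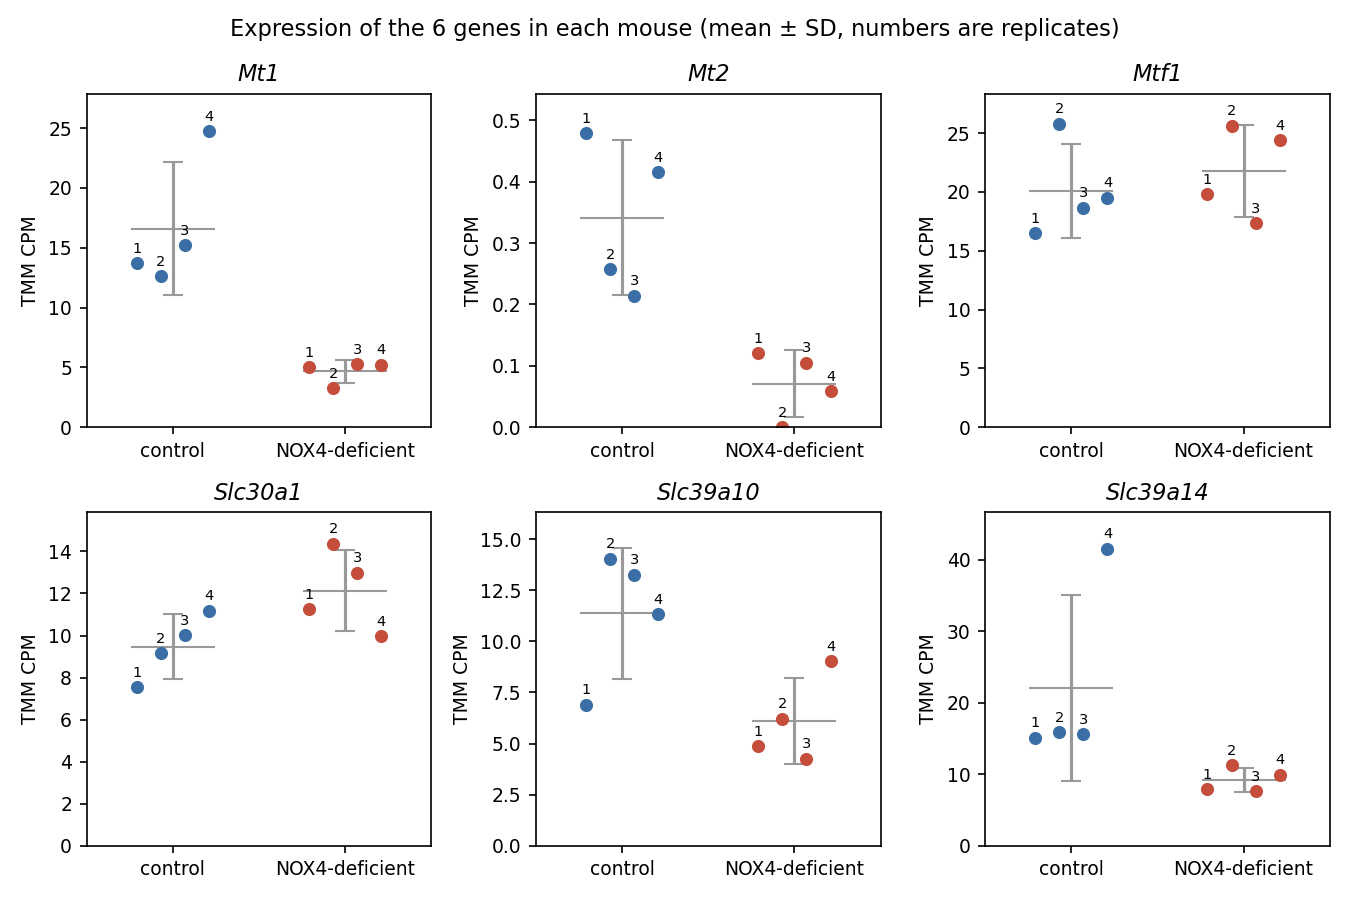
TMM-scaled CPM of the 6 genes in each of 4 control (blue) and 4 KO (red, NOX4-deficient) mice, with the mean and SD as bars and the number of the mouse beside each point. *Mt1*, *Mt2* and *Slc39a14* do not overlap between genotypes, and control mouse 4 stands apart at 24.8 CPM of *Mt1* and 41.5 CPM of *Slc39a14*; axes differ between genes and all start at 0.

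Per kilobase of exon, a rough scaling for length, *Mt1* led in control muscle at 13.3 ± 4.46 CPM (SD, n = 4). It was followed by *Mtf1* at 2.26 ± 0.448, *Slc39a14* at 2.09 ± 1.23, *Slc39a10* at 1.87 ± 0.526 and *Slc30a1* at 1.81 ± 0.291 CPM per kilobase, each within the spread of its neighbor in this order, and *Mt2* came last at 0.581 ± 0.215. That place depends on the bases counted, as 73.5% of those of *Mt2* lie under Gm45774. Divided only by exonic bases free of other genes (156 in *Mt2*), the control means were 2.19 for *Mt2*, 2.46 for *Mtf1* and 2.09 for *Slc39a14*. On that measure *Slc30a1* was at 1.98 and *Slc39a10* at 1.87. In KO muscle *Mt1* was at 3.75 ± 0.776 CPM per kilobase, *Mtf1* at 2.45 ± 0.437, *Slc30a1* at 2.31 ± 0.368, *Slc39a10* at 1.00 ± 0.348 and *Slc39a14* at 0.870 ± 0.161. The mean of *Slc30a1* was thus close to those of *Slc39a14* and *Slc39a10* in control muscle and above both in KO muscle. Exon lengths are those of GENCODE M21 and may differ from those of the annotation the authors counted on. They merge the exons of all annotated transcripts of a gene and are not transcript lengths. The 1246 exonic bases of *Mt1* cover its whole span, so the order of genes is approximate.

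Left in the metallothionein, SLC30A and SLC39A families were 23 genes. They are what remained once the chosen genes were set aside, with their counts known, so that the absence of calls among them is partly set by that choice. Of the 15 with enough counts, 6 had a negative and 9 a positive log2 fold change, from -0.73 to 0.38 with a median of 0.10, and 0 were called lower or higher (edgeR, Benjamini-Hochberg). DESeq2 and pydeseq2 also called 0 of them, and the unadjusted edgeR p was under 0.05 for *Slc30a5*, *Slc39a1* and *Slc39a7*. *Mt3*, known mainly from brain, had 41 counts in control and 36 in KO mice in all, a ratio of 0.897 (95% counting interval 0.557 to 1.44), and *Mt4* had 0 counts in all 8 libraries, which allows up to 3 in each. The metallothionein difference was therefore measured on *Mt1* and, at few counts, *Mt2*.

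Among exporters, *Slc30a9*, a mitochondrial transporter, had the most counts and hardly varied, with 102 ± 6.27 CPM in control and 109 ± 7.20 CPM in KO muscle (SD, n = 4 each; log2 fold change 0.10, SE 0.09, edgeR adjusted p = 0.551). *Slc30a5*, which loads zinc into the early secretory pathway, had 14.9, 14.8, 13.6 and 16.7 CPM in control mice and 11.3, 12.8, 11.5 and 13.3 CPM in KO mice. These groups did not overlap, but the log2 fold change of -0.29 (SE 0.12, edgeR adjusted p = 0.160) was not called. Over the 6 exporters tested other than *Slc30a1*, 3 had a negative and 3 a positive log2 fold change, with a median of -0.10.

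Among importers, *Slc39a1*, encoding the plasma membrane protein ZIP1, had the most counts, at 31.3, 29.2, 31.6 and 25.3 CPM in control and 41.2, 33.0, 37.9 and 34.3 CPM in KO mice. All 4 KO libraries lay above the controls, and the log2 fold change of 0.32 (SE 0.11, edgeR adjusted p = 0.113) was not called. *Slc39a7*, encoding an importer that releases zinc from the endoplasmic reticulum, had 26, 37, 39 and 44 counts in control and 26, 20, 21 and 18 counts in KO mice, which overlapped through the first mouse of each genotype. Its log2 fold change was -0.73 (SE 0.26, edgeR adjusted p = 0.107), and 80.7% of its exonic bases lie under those of the same-strand gene Gm20427 in GENCODE M21. Over the 9 importers tested other than *Slc39a10* and *Slc39a14*, 3 had a negative and 6 a positive log2 fold change, with a median of 0.22.

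**Figure D4:**
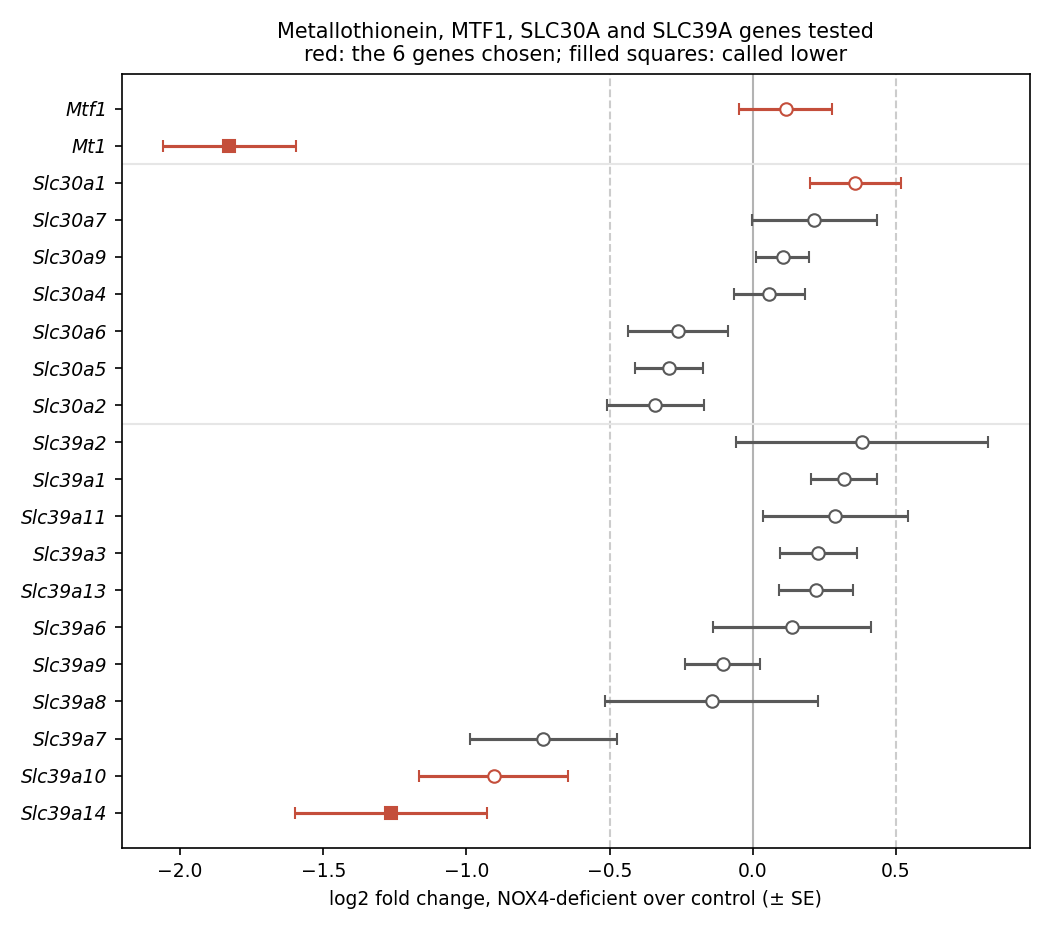
Log2 fold change (KO over control, with SE bars from edgeR) of the 20 metallothionein, MTF1, SLC30A and SLC39A genes tested, with the chosen genes in red, filled squares for those called lower and dashed lines at 0.5 either side of 0. *Mt1* at -1.83 and *Slc39a14* at -1.26 are called, and the 15 family genes not chosen lie between -0.73 and 0.38.

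Genes outside these families that are known as MTF1 targets were mostly not called. Of 6 listed, 5 were tested, 1 was called lower and 0 higher, and the median log2 fold change was 0.01, beside 0.01 over all rows. The shares called over all rows were 3.48% lower and 2.68% higher, and the list was chosen with earlier results of these data known. The called gene was *Gclc*, the catalytic subunit of the enzyme that limits glutathione synthesis, at 22.7 ± 2.74 CPM in control and 14.6 ± 2.15 CPM in KO muscle (SD, n = 4 each). Its groups did not overlap, and the log2 fold change was -0.63 (SE 0.13, edgeR adjusted p = 0.0161), with the call kept in all 16 alternatives. *Gclc* is also known as an NFE2L2 target. Of 11 genes for copper, the other metal bound by metallothioneins, 9 were tested and 0 were called by edgeR with genotype as the only term or by DESeq2 (0 at an unadjusted edgeR p under 0.05), with a median log2 fold change of -0.0038 and a lowest edgeR adjusted p of 0.319.

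Among genes known to be induced by glucocorticoids, all 11 listed were tested, 6 were called lower and 0 higher. In 7 the groups did not overlap. Over all rows tested 3.48% were called lower and 2.68% higher, and in 16.2% the groups did not overlap. The median log2 fold change of the list was -0.72 beside 0.01 over all rows. The list was chosen with earlier results of these data known, so these counts are a description. *Zbtb16*, a transcription factor gene, was at 140 ± 3.69 CPM in control and 35.5 ± 12.7 CPM in KO muscle (SD, n = 4 each; log2 fold change -1.98, SE 0.21, edgeR adjusted p = 6.01e-04), and kept its call in all 16 alternatives. *Cebpd*, encoding a transcription factor of the acute phase, had a log2 fold change of -1.89 (SE 0.37, adjusted p = 0.0184). *Ddit4*, encoding an inhibitor of mTORC1, had -2.01 (SE 0.39, adjusted p = 0.0185), and *Fkbp5*, encoding a co-chaperone of the glucocorticoid receptor, -1.71 (SE 0.34, adjusted p = 0.0190). These last 3 were not called in every alternative, with the highest adjusted p at 0.0797 for *Cebpd*, 0.143 for *Ddit4* and 0.0828 for *Fkbp5*. Only 2 of the 11 were called when control mouse 4 or KO mouse 2 was left out. Also called were *Pdk4*, encoding an inhibitor of pyruvate dehydrogenase, at -1.54 (SE 0.35, adjusted p = 0.0288), and the transcription factor gene *Klf15* at -0.72 (SE 0.16, adjusted p = 0.0195). *Pdk4* lost its call with no filter on low counts and without control mouse 2, 3 or 4 or KO mouse 2. *Klf15* lost its call without control mouse 3 or 4. The 5 genes not called were *Tsc22d3*, *Klf9*, *Sgk1*, *Dusp1* and *Per1*, at log2 fold changes of -0.42, -0.37, -0.18, 0.14 and 0.15. Of these, *Tsc22d3* alone did not overlap between groups, and its adjusted p was 0.0340 with a fold change short of the minimum.

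Of 10 genes linked to interleukin-6 and the acute phase response, all were tested, 3 were called lower and 0 higher, with a median log2 fold change of -0.39. Beside these counts, 3.48% of all rows tested were called lower and 2.68% higher. This list was also chosen with earlier results of these data known. *Il6ra*, the interleukin-6 receptor subunit, was at 12.9 ± 4.96 CPM in control and 4.21 ± 1.67 CPM in KO muscle (SD, n = 4 each; log2 fold change -1.62, SE 0.30, edgeR adjusted p = 0.00953). *Socs3*, encoding a feedback inhibitor of cytokine signaling, had a log2 fold change of -1.02 (SE 0.24, adjusted p = 0.0251), and *Fgl2*, encoding a fibrinogen-like protein, -1.69 (SE 0.40, adjusted p = 0.0354). *Il6ra* was called in all 16 alternatives, whereas the adjusted p of *Socs3* reached 0.0682 and that of *Fgl2* 0.185, and 1 of the 10 was called without KO mouse 2 or KO mouse 3. The 7 genes not called were *Lcn2*, *Pim1*, *Osmr*, *Stat3*, *Serpina3n*, *Lrg1* and *Hp*, at log2 fold changes of -1.27, -0.47, -0.30, -0.29, 0.05, 0.12 and 1.42. All but *Stat3* overlapped between groups.

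**Figure D5:**
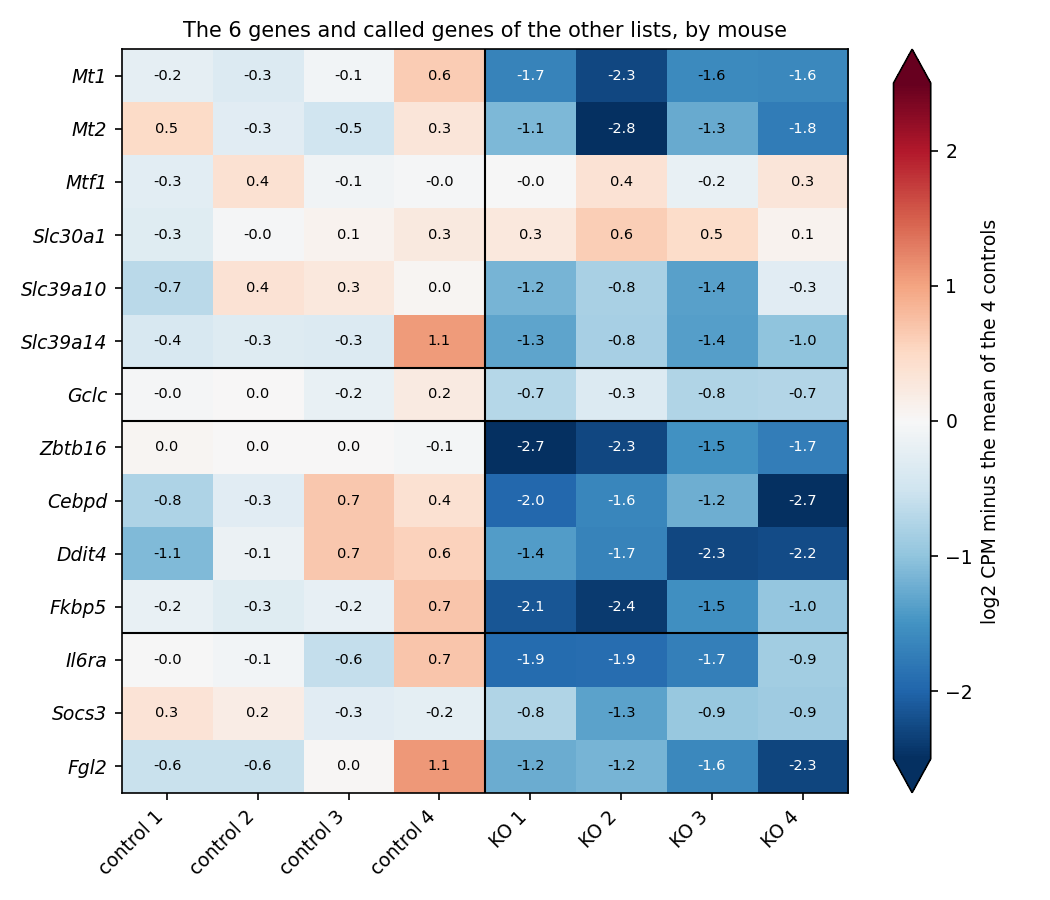
Difference of log2 CPM (prior count 1) in each mouse from the mean of the 4 controls, for the 6 chosen genes (top), *Gclc*, 4 glucocorticoid-responsive genes and 3 interleukin-6 or acute phase genes, in control mice (left of the line) and KO mice (right). Blue is lower and red higher than the control mean. Control mouse 4 is the highest control for *Mt1*, *Slc30a1*, *Slc39a14*, *Gclc*, *Fkbp5*, *Il6ra* and *Fgl2*.

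Over the 8 mice, the rows whose log2 CPM was most like that of *Mt1* were *Wdr33*, *Rab7a* and *Dnaja2*, each with Pearson's r of 0.99. When only deviations from the genotype means were used they were *Lrrc3b*, *Ubtd1* and *Wtap*, with r of 0.98, 0.97 and 0.97. For *Slc39a14* the most alike were *Sidt2*, *Npc1* and 4930429F24Rik, with r of 0.99, 0.98 and 0.98. For *Slc39a10* they were *Klhl9*, *Myo1e* and *Limd1*, for *Mtf1* Mtnd4l, *Znf728* and *Appl1*, and for *Slc30a1* Cep83os, *Tafa5* and *Zfp64*, all with r of at least 0.95. These are the highest of 12725 values each, over mice that share library and genotype, and describe likeness only.

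The markers of the labelled tissue were abundant, with 7 genes of fast skeletal muscle summing to 114000 to 145800 CPM in control and 122100 to 146100 CPM in KO mice. The summed levels of 6 slow fiber, 6 adipocyte, 6 macrophage and leukocyte, 5 endothelial, 5 fibroblast and 4 smooth muscle markers overlapped between genotypes, with 0 markers called and none at 0 in all libraries. Adipocyte markers summed to 14.6 to 80.9 CPM in control and 20.3 to 74.3 CPM in KO mice, and macrophage and leukocyte markers to 8.11 to 21.0 and 4.98 to 12.6 CPM. The summed level of the 3 red blood cell markers measured did not overlap, at 47.6 to 52.7 CPM in control and 72.3 to 159 CPM in KO mice, and 2 of them were called higher, *Hba-a1* (log2 fold change 1.24, edgeR adjusted p = 0.00978) and *Hbb-bs* (1.00, adjusted p = 0.0153). Their part in the differences of *Mt1* and *Slc39a14* was not tested. In whole muscle, fewer cells of a type and less RNA per cell cannot be told apart.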

How the data were processed

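Poly(A) RNA from 8 gastrocnemius muscles was sequenced as unstranded paired-end libraries. The authors aligned and counted the reads with an nf-core pipeline and deposited raw counts of reads per gene, without normalization; the submitters' processing notes name STAR and GRCm39. The annotation and the treatment of overlapping genes are not given in the sources used here. Groups and mouse numbers came from the sample titles, and 0 columns had no matching sample. The 412 rows that repeat an earlier name were kept as separate rows, and 0 of the 6 genes had a repeated name. Depth was 16350548 to 19804661 counts, and intervals and floors (3 counts) cover counting error only. No replicates agreed within sampling noise (chi-square of 13.3 to 56.6 per degree of freedom in 12 pairs).

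In R 4.3.3, edgeR 4.0.16 was used with TMM, filterByExpr, a robust glmQLFit and the quasi-likelihood F test, with genotype as the only term and Benjamini-Hochberg adjustment over 12725 rows. A gene was called when its adjusted p was under 0.05 and its log2 fold change beyond 0.5 in either direction, as in the study's methods. The members and all gene lists were chosen with earlier results of these data known. Named were all members, other family genes that were called or had most counts, at most 4 called genes of each other list by p, and the 3 rows most like each member. *Slc30a5*, *Slc39a7*, *Atp7a*, *Hba-a1*, *Hbb-bs* and the remaining genes of the glucocorticoid and interleukin-6 lists were named after their values were seen. Likeness to *Mt2* was not computed because *Mt2* was not tested.

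The fit was tested on simulated data. Alternatives were DESeq2's size factors, library size only, no filter, a minimum of 10 counts in each library, a non-robust fit, the replicate number as a block, each mouse left out, DESeq2 1.42.0 and pydeseq2 0.5.4. Exon overlaps come from GENCODE M21 (GRCm38) and promoters from RefSeq (GRCm38.p6), which held entries for 5 of the 6 genes and had a different build from the counts, so no coordinates were carried between them. Figures were drawn with matplotlib 3.10.9 under Python 3.11.15.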

Additional observations from a re-analysis of the deposited data

Results flagged for a closer look

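In 8 of 44 groups of 4 mice, Dixon's ratio of the highest or lowest mouse, its gap to the next mouse divided by the range of the group, was above the 95% critical value. For independent and normally distributed groups chance gives about 1 in 20, or 2.2 of 44. The groups here are unlogged CPM from the same mice, so 2.2 is not their exact expectation. *Mt1* in KO mouse 2 was the lowest of its group, at 3.24 CPM against 4.99 CPM in the next (ratio 0.870). *Slc39a14* in control mouse 4 was at 41.5 CPM, with 15.9 CPM in the next (0.970). *Gclc* was high in KO mouse 2, at 17.9 against 13.8 CPM (0.905). *Fkbp5* was high in control mouse 4, at 203 against 110 CPM (0.927), and *Il6ra* in KO mouse 4, at 6.68 against 3.73 CPM (0.845). Of the summed markers, skeletal muscle was high in control mouse 3 (0.851), and adipocyte (0.836) and smooth muscle (0.928) in control mouse 1.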

How the results depend on the processing

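The calls of *Mt1*, *Mtf1* and *Slc30a1* did not change in the 16 alternatives, which refit the libraries the genes were chosen on, and 0 of the other family genes were called in any. Among the 5 chosen genes fitted and among *Nox4*, *Gclc*, *Zbtb16*, *Cebpd*, *Ddit4*, *Fkbp5*, *Il6ra*, *Socs3* and *Fgl2*, no log2 fold change changed sign. The fold changes of other named genes were not followed singly. Over all rows the count of calls was 784, 1018 by DESeq2, 1007 by pydeseq2 and 986 without the minimum fold change, and 499 to 712 with each mouse left out, lowest without control mouse 4. Of the 6 genes, 1 in place of 2 was called with DESeq2's size factors in edgeR, with library size only and with no filter on low counts, and 1 to 3 with each mouse left out. *Slc39a14* was not called with DESeq2's size factors (-1.27), library size only (-1.26) or no filter (-1.27), and ranged from -1.41 to -0.76 with each mouse left out. *Slc39a10* was called at -0.91 by DESeq2 and -0.91 by pydeseq2, and ranged from -1.14 to -0.76 with each mouse left out. Of the other lists, 10 genes were called, 5 with no filter, and 4 to 9 with each mouse left out, where the lowest count came without KO mouse 2 and 6 were called without control mouse 4. The causes were not tested. Searched on the strand of the gene only, the metal response element core matched 3 times in *Mt1*, 2 in *Mt2* and 0 in *Slc30a1*, and at least once in 14.8% of promoters. Depth limits *Mt2*, with 25 control and 5 KO counts in all.

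The mouse numbers are shared between genotypes, but the labels tie no control to a KO mouse. Deviations from the genotype means of same-numbered mice correlated at 0.214, 0.142, 0.0345 and 0.0406, and 1 of the 4 pairs was the best partner of its control, so the numbers were not treated as pairs. With the number as a replicate block, 933 rows were called. *Slc39a10* (-0.91) and the copper exporter gene *Atp7a* gained a call, *Ddit4* (adjusted p = 0.143) and *Fgl2* (adjusted p = 0.185) lost theirs, and 9 genes of the other lists were called in place of 10.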
